A study of Mus musculus with 8 samples.

Results

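The 46 genes described here encode the machinery that licenses, starts and carries out DNA replication, with the cyclins, kinase and transcription factor of the G1/S step. They were taken by official symbol from a list of names, and each matched exactly 1 of the 55414 genes in the deposited 24 h table. The list was drawn up with earlier results of these libraries known, so its composition is not independent of them. All 46 exceeded 10 TPM, transcript abundance per length and scaled to the same total in each library, in at least 1 library, the threshold that the study applied, and all were therefore tested together with the other genes that reached it, 9943 in all.

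The cells were mpkCCD, a mouse cortical collecting duct line. The line came from mice that carry the SV-PK/Tag transgene, which encodes SV40 large T antigen, and a single subclone (clone 11) with high Aqp2 was used. Confluent monolayers on permeable filters were kept in 0.1 nM dDAVP, a selective agonist of the vasopressin V2 receptor, and dDAVP was present in every sample. For 24 h they then received 50 nM tolvaptan, an antagonist of that receptor, plus dDAVP (4 libraries), or vehicle plus dDAVP (4 libraries, labelled dDAVP alone). The culture protocol moves cells to a medium free of serum and growth factors on the day before an experiment. The labels number the libraries as replicates without stating that each came from its own culture. A p-value therefore speaks only of library-to-library spread, which may be technical. Since this is bulk RNA, more cells in S phase and more RNA per cell cannot be told apart.

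DNA replication is licensed in G1 phase, when the origin recognition complex (Orc1 to Orc6), Cdc6 and Cdt1 load the ring-shaped Mcm2-7 helicase onto DNA in an inactive form. At the start of S phase the kinases Cdk2 with cyclin E and Cdc7 with Dbf4, together with Mcm10, turn that helicase on by adding Cdc45 and the GINS complex. DNA polymerase alpha and primase then lay down primers, the Rfc clamp loader places the Pcna ring, and polymerases delta and epsilon extend. Most of these genes are known targets of E2F transcription factors, which the retinoblastoma protein family holds back in resting cells. SV40 large T antigen binds and inactivates that family, and this is a property that both groups share.

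With tolvaptan, 15 of the 46 replication genes rose and none fell at an adjusted p under 0.05 (limma on log2(TPM + 1), Benjamini-Hochberg over all 9943 genes tested). Over all genes tested, 10% (994 of 9943) rose and 6.10% (607) fell by the same rule. The rises were small. The median log2 ratio of tolvaptan plus dDAVP to dDAVP alone was 0.14 over the 46 genes and 0.05 over all genes, and the members ran from -0.21 for Orc4 to 0.42 for Mcm10. The estimate was above 0 for 44 of the 46 and below 0 for Orc4 and Pola1, neither of which passed the test. Every tolvaptan library lay above every dDAVP library for 18 of the 46 genes and below for none, while over all genes tested the groups separated upward for 15.1% and downward for 7.99%. At the study's criteria, an absolute log2 ratio over 0.59 with an unadjusted p under 0.01, none of the 46 passed in either direction, against 1.74% of all genes. The p-values here came from limma on log2(TPM + 1), while the paper names DESeq2, so its own list may differ. An unadjusted p under 0.05 was found for 25 of the 46, all higher, when 21% (2085 of 9943) of all genes were higher and 9.92% (986) lower by that rule.

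The balance of higher and lower calls over the whole table moved with the scaling. As deposited, 62.1% of all genes called were higher with tolvaptan. Giving every library the same median lowered that share to 41.1%, and quantile normalization to 47.4%. In these fits 13 and 16 of the 46 replication genes rose and none fell, when 5.79% and 6.16% of all genes rose. Removing each library's GC trend, described next, brought the share to 43.6%. The median log2 ratio of the 46 was 0.09 with a common median and 0.14 after quantile normalization. Over all genes it was 0.01 in each of these fits.

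**Figure D1:**
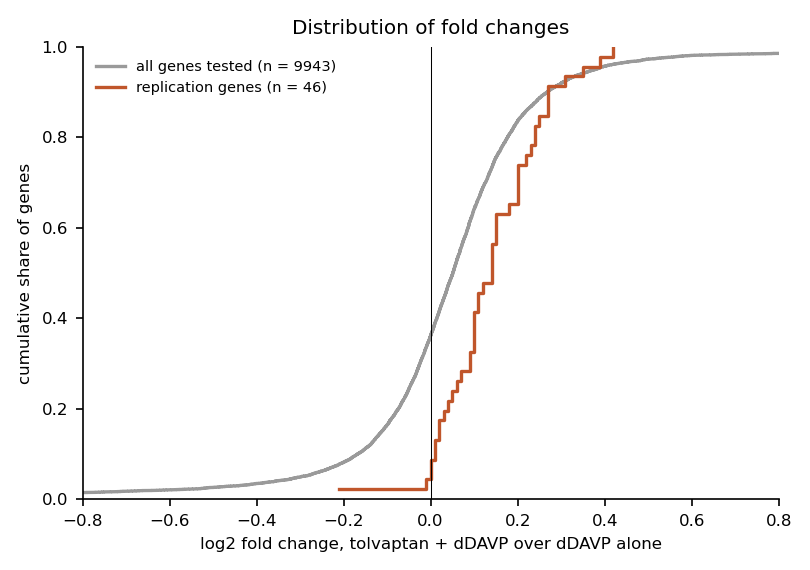
Cumulative share of genes (vertical axis) by log2 ratio of tolvaptan plus dDAVP to dDAVP alone (horizontal axis, log2(TPM + 1) scale), for all 9943 genes tested (grey) and for the 46 replication genes (orange). The orange curve has its median at 0.14 against 0.05 for the grey curve and ends at 0.42, with only Orc4 (-0.21) and Pola1 (-0.01) left of 0.

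Tolvaptan replicate 4 stood apart from the other tolvaptan libraries, and this bears on many of the values below. Its log2 values differed from the mean of the other 3 by a median of 0.16 over all genes tested and 0.13 over the 46, while the other 7 libraries differed from the rest of their own group by 0.05 to 0.10 and by 0.03 to 0.08. Over the 46 genes, its deviation followed the GC content of the longest transcript (Spearman 0.82, Pearson 0.83, across genes of 1 library, which are not independent replicates), and over the 9835 tested genes with a known GC content the Spearman value was 0.71. In tolvaptan replicates 1 to 3 the Spearman value over the 46 was -0.68, -0.31 and -0.60, and in the dDAVP libraries it lay between -0.37 and 0.35. Each library was compared with the mean of the others in its group, which for tolvaptan replicates 1 to 3 includes replicate 4. Their negative values are therefore in part a mirror of replicate 4. Whether these libraries also have a GC trend of their own was not tested. The part of GC content in the group difference was not tested beyond removing each library's GC trend, an alternative added after the data were seen. That fit called 15 of the 46 higher and 1 lower, Orc4, against 9.41% of all genes higher and 12.2% lower. The members' median log2 ratio in that fit was 0.09, against 0 over all genes. Without tolvaptan replicate 4, 23 of the 46 rose and none fell, against 15.2% and 8.73% of all genes, and the 15 called in all libraries were among the 23. The members' median log2 ratio was then 0.15, against 0.05 over all genes. The groups then separated upward for 27 of the 46 against 22.6% of all genes. Of the 8 genes gained, 7 were lower in replicate 4 than in the mean of the other tolvaptan libraries. Leaving out a low tolvaptan value raises the ratio, so the way these genes were picked favours such a count.

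**Figure D2:**
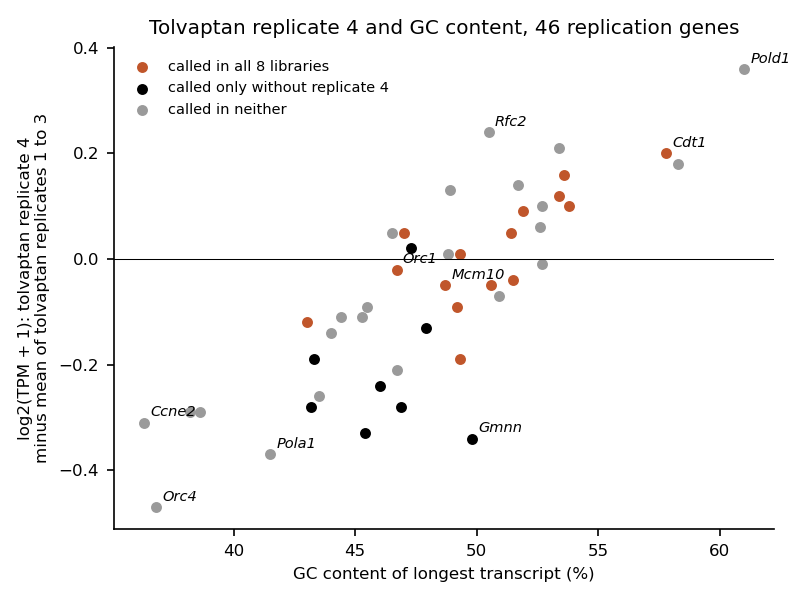
Each point is 1 of the 46 replication genes. The horizontal axis is the GC content (%) of the longest annotated transcript and the vertical axis is log2(TPM + 1) in tolvaptan replicate 4 minus the mean of tolvaptan replicates 1 to 3. Genes of low GC content such as Orc4 (36.8% GC, -0.47) lay below 0 and genes of high GC content such as Pold1 (61.0% GC, 0.36) above it. Black points are the 8 genes that passed without this library and not in all 8 libraries.

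The 300-base promoters of these genes, from 250 bases before to 50 after the start, were read from RefSeq (GRCm38.p6, another build than the authors used), where 37 of the 46 matched, with 44 starts. The E2F motif was searched on both strands as TTTCCCGC, TTTCGCGC, TTTGCCGC or TTTGGCGC, and it was found in 14 of the 44 promoters (31.8%), against 4.34% of the promoters of tested genes and 2.26% of all promoters of this length. CCAAT was found in 25 of the 44 (56.8%, against 38.4% and 37.4%). The cAMP response element TGACGTCA was in 2 of the 44 (4.55%, against 3.22% and 1.79%), those of Mcm5 and Orc5. TTTGAA, a motif of genes expressed late in the cycle, was in 4 (9.09%, against 11.6% and 17.9%), and the GC box GGGCGG in 32 (72.7%, against 65.6% and 35.7%). Matches of different motifs overlapped in 1 promoter for E2F with CCAAT and in 1 for CCAAT with the GC box. Of the 13 genes that rose and had a promoter in the table, 6 held the E2F motif at 1 or more starts, and of the 24 that did not pass the test, 8 did. CCAAT was held by 6 of the 13 and 17 of the 24, and the GC box by 8 and 20. These splits were not tested. No promoter was at hand for Mcm4, Gmnn, Gins1, Gins2, Gins4, Prim2, Pole, Rfc2 and Ccne2. A match is a description of the letters and not of binding.

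The following stretches are the 170 bases before the start, written 5′ to 3′ toward the gene, with matches to the E2F motif, CCAAT and the cAMP response element on either strand in capitals (GCGGGAAA, GCGCGAAA and GCGCCAAA are E2F matches and ATTGG is CCAAT on the other strand). They were chosen to show 3 helicase subunits with both E2F and CCAAT matches, the largest rises among origin recognition and helicase activation genes (Orc1 and Mcm10), the loading factor Cdc6, and Rfc3, whose call depended on tolvaptan replicate 4. For Mcm7, which has more than 1 start, the stretch before the first listed start is shown.
Mcm5 (chr8:75109339-75109508, plus strand): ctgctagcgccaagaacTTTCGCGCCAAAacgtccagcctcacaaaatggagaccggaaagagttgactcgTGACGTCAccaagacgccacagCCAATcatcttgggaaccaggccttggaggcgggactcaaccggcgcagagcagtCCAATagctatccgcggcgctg
Mcm6 (chr1:128359706-128359875, minus strand): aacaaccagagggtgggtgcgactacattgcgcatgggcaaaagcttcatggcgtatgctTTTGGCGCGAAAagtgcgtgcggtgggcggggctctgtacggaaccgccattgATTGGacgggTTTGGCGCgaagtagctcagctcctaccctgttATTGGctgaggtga
Mcm7 (chr5:138171884-138172053, minus strand): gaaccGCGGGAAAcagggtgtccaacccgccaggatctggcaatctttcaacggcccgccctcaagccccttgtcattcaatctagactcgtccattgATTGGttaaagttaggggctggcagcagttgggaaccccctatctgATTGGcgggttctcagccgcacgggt
Orc1 (chr4:108579284-108579453, plus strand): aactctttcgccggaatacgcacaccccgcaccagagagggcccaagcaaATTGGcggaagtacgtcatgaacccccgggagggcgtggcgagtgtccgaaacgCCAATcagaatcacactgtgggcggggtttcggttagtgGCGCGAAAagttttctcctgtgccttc
Mcm10 (chr2:5012792-5012961, minus strand): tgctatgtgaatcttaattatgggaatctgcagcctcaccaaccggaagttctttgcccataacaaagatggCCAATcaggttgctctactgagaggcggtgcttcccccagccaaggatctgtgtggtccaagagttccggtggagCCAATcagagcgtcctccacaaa
Cdc6 (chr11:98907981-98908150, plus strand): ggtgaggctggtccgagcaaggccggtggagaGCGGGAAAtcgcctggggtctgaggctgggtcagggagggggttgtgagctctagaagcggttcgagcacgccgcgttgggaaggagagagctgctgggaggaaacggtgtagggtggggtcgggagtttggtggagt
Rfc3 (chr5:151651209-151651378, minus strand): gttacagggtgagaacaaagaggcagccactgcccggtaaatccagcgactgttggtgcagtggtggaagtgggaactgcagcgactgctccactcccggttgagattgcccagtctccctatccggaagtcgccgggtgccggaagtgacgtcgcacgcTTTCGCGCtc

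In Mcm5 the capitals near the left end are 2 overlapping E2F matches on opposite strands, followed by a cAMP response element and 2 CCAAT matches. Mcm6 also shows an overlapping pair and a further E2F match, between 2 CCAAT matches read on the other strand. In Mcm7 an E2F match lies far upstream and 2 CCAAT matches lie closer to the start. Mcm10, the gene with the largest rise, has 2 CCAAT matches and no E2F match in this stretch, which says only that these letters are not in it.

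Within the Mcm2-7 helicase, Mcm5 and Mcm7 rose. Mcm5 (ENSMUSG00000005410) stood at 340, 350, 356 and 339 TPM in the dDAVP libraries and at 375, 399, 402 and 416 TPM in the tolvaptan libraries. All 4 tolvaptan values lay above all 4 dDAVP values, with a log2 ratio of 0.20 ± 0.04 (SE; limma adjusted p = 0.0114). Mcm7 went from 383, 397, 389 and 376 TPM to 419, 455, 432 and 473 TPM, also without overlap (log2 ratio 0.20 ± 0.05 SE, limma adjusted p = 0.0152). Without dDAVP replicate 4 or tolvaptan replicate 2, Mcm7 missed the threshold (adjusted p = 0.0557 and 0.0515 from limma). Mcm6, the most abundant of the 46 genes, held 673, 666, 674 and 667 TPM with dDAVP alone and 689, 724, 724 and 720 TPM with tolvaptan. Its groups did not overlap, yet the log2 ratio of 0.09 ± 0.03 (SE) did not pass (limma adjusted p = 0.0884), except without tolvaptan replicate 4 (adjusted p = 0.049) and after quantile normalization (adjusted p = 0.0374). The other subunits, Mcm2 (0.10), Mcm3 (0.11) and Mcm4 (0.00), overlapped between groups and did not pass, although Mcm3 did so without tolvaptan replicate 1 (adjusted p = 0.0277 from limma), the lowest tolvaptan library at 581 TPM. The mean levels of the 6 subunits, which act in equal number in the ring, ranged from 346 to 670 TPM with dDAVP alone. Exons of Mcm7 overlap those of the more abundant Cops6 on the opposite strand over 64 bases, and the library kit does not mark strand.

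In the origin recognition complex, which marks the origins, Orc1 was the exception. This largest subunit, whose protein is known in human cells to vary through the cycle, was also the scarcest of all 46 genes, at 23.4, 22.6, 22.2 and 21.8 TPM with dDAVP alone. In the tolvaptan libraries it stood at 28.0, 31.4, 30.5 and 29.5 TPM, all above every dDAVP value, a log2 ratio of 0.39 ± 0.05 (SE; limma adjusted p = 0.000989) or 32.8% in mean TPM. It passed in every alternative run. Of the other 5 subunits none passed, with log2 ratios from -0.21 for Orc4 to 0.09 for Orc3. Orc4 held 121, 129, 123 and 131 TPM with dDAVP alone and 120, 113, 121 and 84.6 TPM with tolvaptan, so that only replicate 4 lay far below (log2 ratio -0.09 ± 0.04 SE without it). Orc6, the most abundant subunit, was at 127, 128, 136 and 138 TPM with dDAVP alone and at 149, 144, 146 and 116 TPM with tolvaptan, the last being replicate 4. It passed only without that library (log2 ratio 0.14, limma adjusted p = 0.0321). Orc2 shares 1150 exonic bases with Nif3l1 on the opposite strand, and its value is uncertain to that extent.

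The factors that load and start the helicase gave 4 rises among 5 genes, when 10% of all genes tested rose. Mcm10, which helps the loaded helicase to open DNA, had the largest log2 ratio of the 46. It stood at 36.3, 36.8, 39.2 and 38.8 TPM with dDAVP alone and at 48.6, 53.8, 51.1 and 49.3 TPM with tolvaptan. The lowest tolvaptan value was well above the highest dDAVP value (log2 ratio 0.42 ± 0.05 SE, limma adjusted p = 0.000426). Cdc6, the loading ATPase, held 90.5, 90.2, 91.3 and 93.6 TPM against 111, 108, 117 and 105 TPM (log2 ratio 0.27 ± 0.04 SE, limma adjusted p = 0.003). Its partner Cdt1 went from 126, 126, 134 and 121 TPM to 140, 154, 148 and 169 TPM, without overlap. The log2 ratio of Cdt1 was 0.27 ± 0.06 (SE; limma adjusted p = 0.0162), but with dDAVP replicate 4 left out the adjusted p was 0.0573. Cdc45, a part of the active helicase, was at 83.6, 90.8, 91.5 and 85.0 TPM against 104, 107, 105 and 92.5 TPM, the last being replicate 4 and just above the dDAVP range. Its call (log2 ratio 0.22 ± 0.06 SE, limma adjusted p = 0.0292) was lost when dDAVP replicate 1, 2 or 4 or tolvaptan replicate 1, 2 or 3 was left out (adjusted p of at most 0.0882) and with a common median (adjusted p = 0.0723), and its exons share 209 bases with Ufd1. Geminin (Gmnn), which binds Cdt1 and blocks a second round of loading, held 136, 129, 140 and 137 TPM with dDAVP alone. In the tolvaptan libraries it stood at 167, 158, 172 and 130 TPM, with replicate 4 inside the dDAVP range. It did not pass in all 8 libraries (log2 ratio 0.20 ± 0.08 SE, limma adjusted p = 0.115) and passed without replicate 4 (0.29 ± 0.04 SE, adjusted p = 0.00127).

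**Figure D3:**
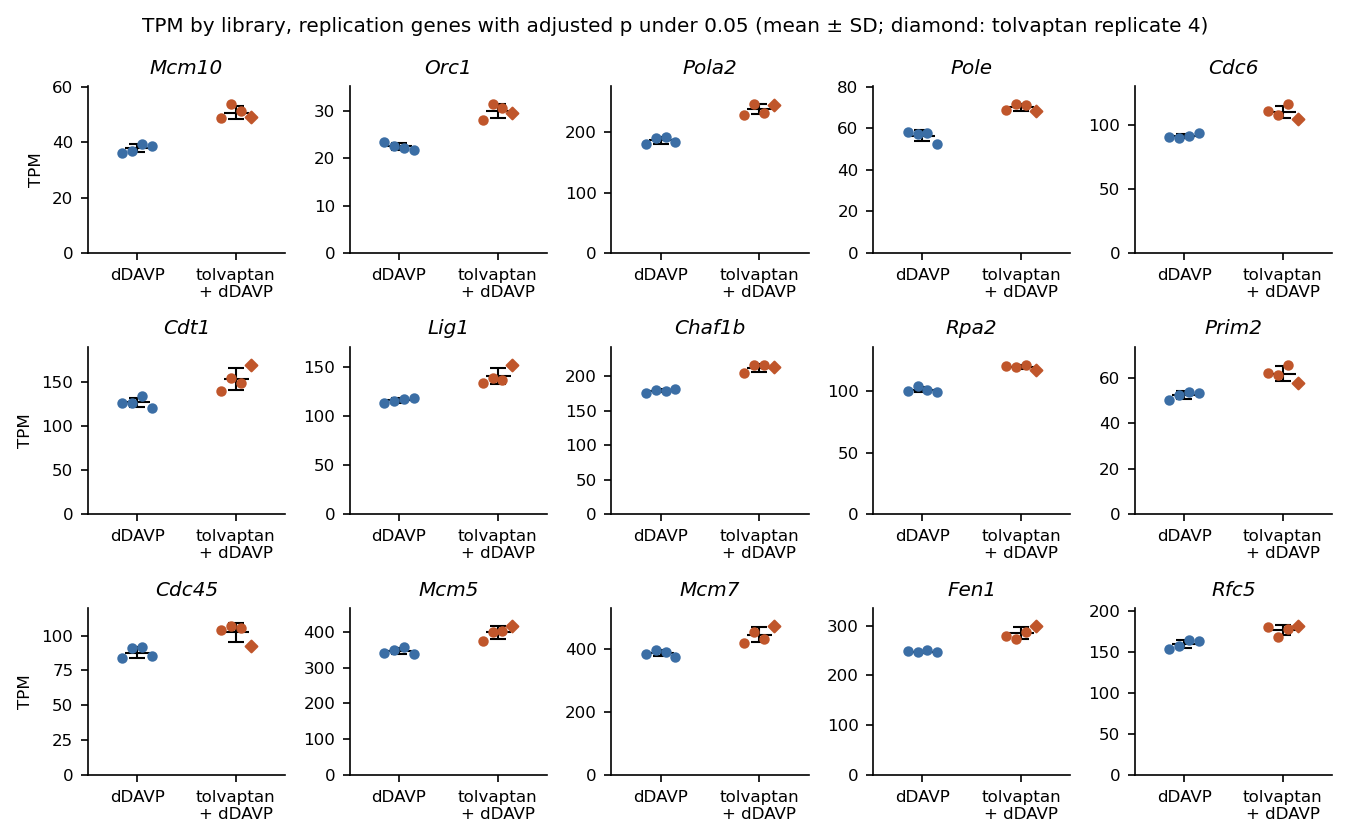
TPM (vertical axis, starting at 0) in each library for the 15 replication genes with an adjusted p under 0.05, ordered by log2 ratio, with dDAVP alone in blue and tolvaptan plus dDAVP in orange. Bars give mean ± SD (n = 4) and the diamond is tolvaptan replicate 4. In each of the 15 genes every orange point lies above every blue point.

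Of the GINS subunits, which join Cdc45 on the active helicase, none passed. Their log2 ratios were 0.14 for Gins1, 0.14 for Gins2, 0.15 for Gins3 and 0.02 for Gins4. Gins2 did not overlap between groups, at 161, 156, 157 and 165 TPM against 167, 172, 168 and 196 TPM (limma adjusted p = 0.127). It shares 67.3% of its exonic bases with Gse1 on the opposite strand. Gins1 was at 34.8 to 37.7 TPM with dDAVP alone and at 43.1, 42.9, 39.7 and 34.2 TPM with tolvaptan, and it passed only without replicate 4 (log2 ratio 0.21, limma adjusted p = 0.0124), as did Gins3 (0.18, adjusted p = 0.0259). Gins3 stood at 45.0, 44.7, 41.1 and 42.3 TPM with dDAVP alone and at 48.7, 47.5, 51.0 and 44.9 TPM with tolvaptan.

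Among primase and polymerase subunits, Pola2, Pole and Prim2 rose while Prim1 and Pola1 did not pass. Pola2, the regulatory subunit of DNA polymerase alpha, went from 180, 190, 192 and 185 TPM to 230, 247, 232 and 245 TPM. This was 27.7% in mean TPM, a log2 ratio of 0.35 ± 0.04 (SE; limma adjusted p = 0.000446), with replicate 4 among the high values. The catalytic subunit of the same enzyme, Pola1, held 38.3, 41.3, 39.6 and 38.5 TPM against 41.6, 42.5, 41.3 and 32.1 TPM. The groups overlapped through replicate 4 alone, and Pola1 did not pass with it (log2 ratio -0.01 ± 0.08 SE) or without it (0.08 ± 0.04 SE, limma adjusted p = 0.191). Pole, the catalytic subunit of polymerase epsilon, stood at 58.0, 57.4, 57.9 and 52.3 TPM with dDAVP alone and at 68.8, 71.7, 71.2 and 68.3 TPM with tolvaptan (log2 ratio 0.31 ± 0.05 SE, limma adjusted p = 0.00208). The large primase subunit Prim2 held 50.2, 52.7, 54.0 and 53.5 TPM against 62.4, 61.2, 65.8 and 57.8 TPM (log2 ratio 0.23 ± 0.05 SE, limma adjusted p = 0.0141). Its catalytic partner Prim1 was at 244, 250, 264 and 268 TPM against 268, 273, 262 and 243 TPM, with overlapping groups (log2 ratio 0.03 ± 0.05 SE). Pold1, the catalytic subunit of polymerase delta, was at 127, 159, 149 and 186 TPM with tolvaptan and 116 to 140 TPM with dDAVP alone, and did not pass (log2 ratio 0.24 ± 0.10 SE, limma adjusted p = 0.153) except without tolvaptan replicate 1 (0.33, adjusted p = 0.0367). Without replicate 4, its highest library, the log2 ratio of Pold1 was 0.15 (limma adjusted p = 0.228).

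For the sliding clamp and its loader, 1 of 6 genes passed in all libraries, as higher, when 10% of all genes tested rose. Pcna, the ring that tethers polymerases, held 258, 250, 258 and 275 TPM with dDAVP alone and 299, 273, 281 and 263 TPM with tolvaptan. The groups overlapped and Pcna did not pass (log2 ratio 0.10 ± 0.05 SE, limma adjusted p = 0.213). Rfc5 went from 154, 158, 165 and 164 TPM to 181, 169, 178 and 182 TPM (log2 ratio 0.15 ± 0.04 SE, limma adjusted p = 0.0417). Rfc5 no longer passed when any dDAVP library or tolvaptan replicate 1 or 3 was left out (adjusted p of at most 0.125), with a common median (adjusted p = 0.147) and with the GC trend removed (adjusted p = 0.136), and 499 exonic bases are shared with Wsb2. Rfc3 was tight at 177 to 179 TPM with dDAVP alone and stood at 198, 211, 209 and 170 TPM with tolvaptan. Only replicate 4 lay below the dDAVP range, and Rfc3 passed without it (0.22 ± 0.03 SE, limma adjusted p = 0.00189) and not with it (0.15 ± 0.06 SE, adjusted p = 0.158). With all libraries it passed once the GC trend was removed (adjusted p = 0.0399). Rfc2 did not overlap between groups, at 359, 357, 358 and 349 TPM against 379, 386, 364 and 445 TPM, but did not pass (limma adjusted p = 0.129). Rfc1 and Rfc4 had log2 ratios of 0.12 and 0.04.

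Single-strand binding and the joining of Okazaki fragments gave 3 rises of 4, when 10% of all genes tested rose. Rpa2, the middle subunit of replication protein A, was at 100, 104, 101 and 99.4 TPM against 120, 119, 121 and 117 TPM (log2 ratio 0.24 ± 0.04 SE, limma adjusted p = 0.00242). The large subunit Rpa1 held 317, 306, 313 and 328 TPM against 308, 316, 318 and 343 TPM and did not pass (log2 ratio 0.02 ± 0.04 SE). Lig1, the ligase that seals Okazaki fragments, went from 113, 115, 117 and 118 TPM to 134, 139, 137 and 152 TPM (log2 ratio 0.27 ± 0.05 SE, limma adjusted p = 0.00435). Fen1, the nuclease that trims their flaps, stood at 249, 247, 250 and 246 TPM with dDAVP alone and at 280, 273, 288 and 300 TPM with tolvaptan (log2 ratio 0.20 ± 0.04 SE, limma adjusted p = 0.00838). In both genes replicate 4 was the highest library. Fen1 lies within an antisense gene model (Gm10143, at most 5.88 TPM) over 78.8% of its exonic bases, and shares 130 bases (5.37%) with the more abundant Tmem258 (at most 426 TPM) on the opposite strand.

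No gene of nucleotide synthesis passed in all 8 libraries. The ribonucleotide reductase subunits Rrm1 and Rrm2, which make deoxynucleotides, were both low in tolvaptan replicate 4. Rrm1 held 264, 268, 261 and 257 TPM with dDAVP alone and 283, 299, 296 and 256 TPM with tolvaptan. Rrm2 held 313 to 337 TPM with dDAVP alone and 367, 341, 367 and 304 TPM. Replicate 4 was the lowest of all 8 libraries in both, and without it both passed with a log2 ratio of 0.16 (limma adjusted p = 0.00867 for Rrm1 and 0.019 for Rrm2). Thymidylate synthase (Tyms) held 357, 356, 345 and 333 TPM with dDAVP alone and 337, 376, 378 and 313 TPM with tolvaptan and did not pass either way. The groups also overlapped without replicate 4.

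Chromatin assembly factor 1, which deposits histones behind the fork, was represented by both of its larger subunits. Chaf1b rose, from 176, 180, 179 and 181 TPM to 204, 216, 216 and 213 TPM (log2 ratio 0.25 ± 0.04 SE, limma adjusted p = 0.0019), and passed in every alternative run. Chaf1a was at 77.7 to 86.2 TPM against 83.0, 95.8, 100 and 99.2 TPM. With tolvaptan replicate 1 inside the dDAVP range it did not pass (log2 ratio 0.18 ± 0.07 SE, limma adjusted p = 0.0928), and without that library it did (adjusted p = 0.0144). Of the exonic bases of Chaf1a, 52.5% also belong to Ubxn6 on the opposite strand.

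The regulators of the G1/S step did not pass, with or without tolvaptan replicate 4. Cyclin E1 (Ccne1) was nearly level, at 28.2, 28.8, 27.6 and 30.0 TPM with dDAVP alone and 28.9, 28.8, 29.0 and 28.8 TPM with tolvaptan (log2 ratio 0.01 ± 0.05 SE). Cyclin E2 (Ccne2) stood at 49.8, 50.9, 50.5 and 59.0 TPM and at 63.4, 53.8, 61.1 and 47.7 TPM, with replicate 4 the lowest of all. Their kinase Cdk2 held 169, 163, 178 and 165 TPM against 177, 172, 175 and 175 TPM (log2 ratio 0.05 ± 0.04 SE). E2f1, the activator of many replication genes and itself an E2F target, was at 63.5, 66.4, 65.5 and 61.3 TPM against 64.1, 68.1, 73.3 and 77.8 TPM, and the log2 ratio of 0.14 ± 0.06 (SE) did not pass (limma adjusted p = 0.167). The difference between these 4 genes and the called replication genes was not tested.

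**Figure D4:**
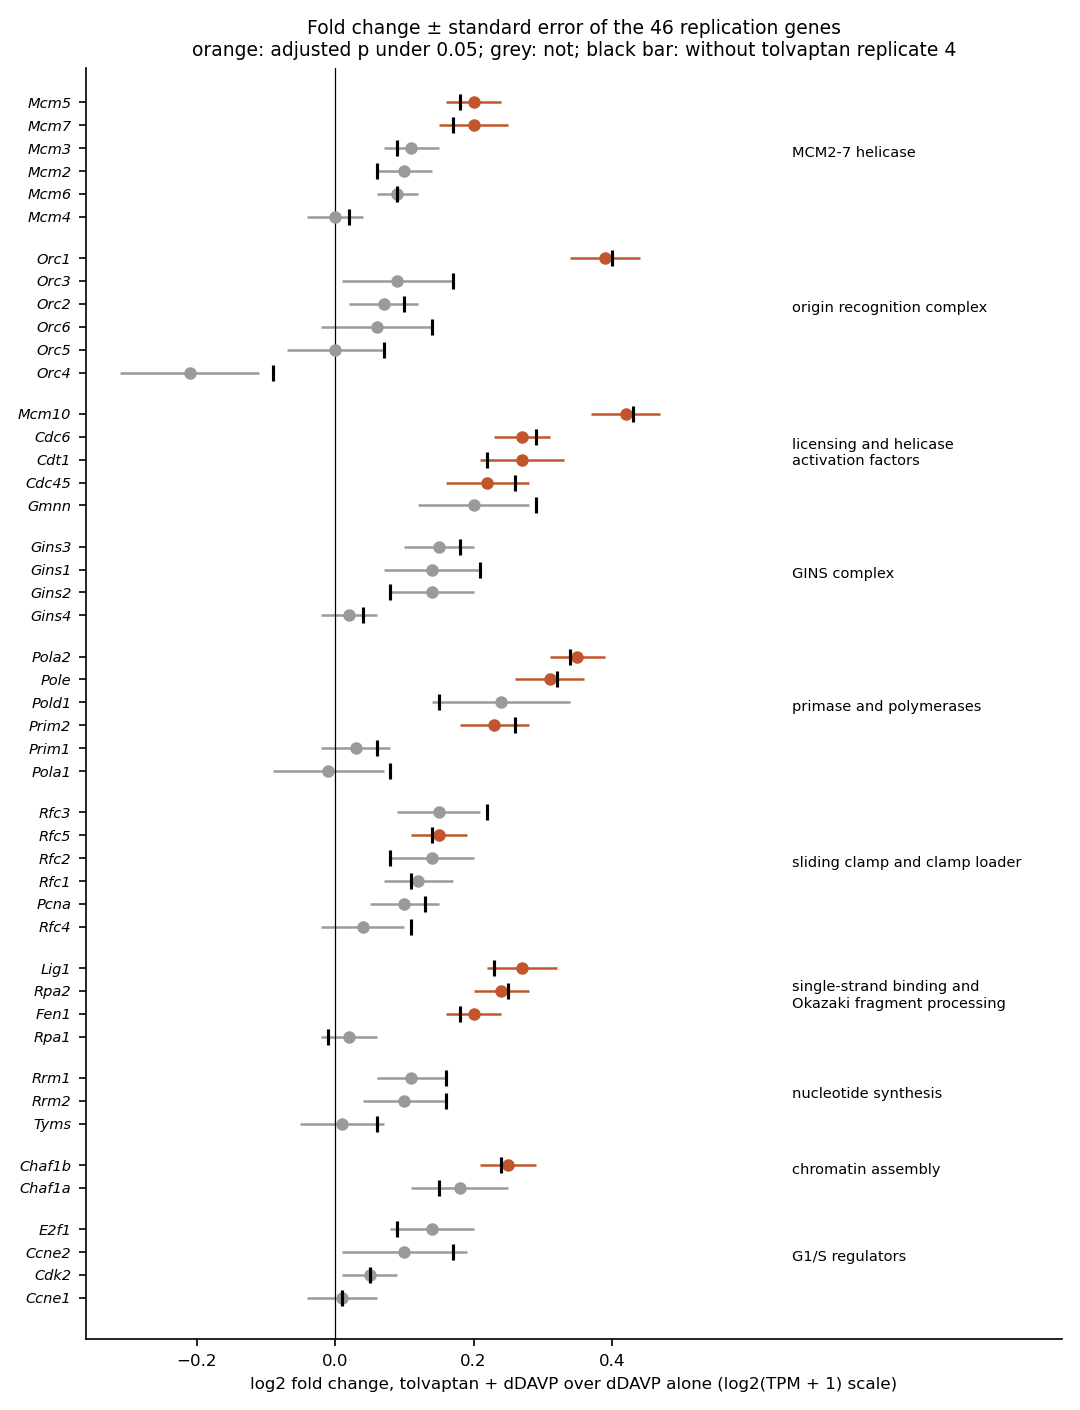
Log2 ratio of tolvaptan plus dDAVP to dDAVP alone (horizontal axis, log2(TPM + 1) scale) with its standard error for each of the 46 replication genes, grouped by role. Orange points passed an adjusted p of 0.05, grey points did not, and the black bar is the value without tolvaptan replicate 4. Values run from -0.21 (Orc4) to 0.42 (Mcm10), and without replicate 4 Orc4 moves to -0.09 and Gmnn from 0.20 to 0.29.

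Genes of the same process outside the 46 were also examined. Of 46 further genes of the replication machinery, 45 were tested, 12 rose and none fell, against 10% and 6.10% of all genes. Their median log2 ratio was 0.16, with estimates above 0 for 38 and below 0 for 7. The groups separated upward for 16 of the 45 and downward for 1, against 15.1% and 7.99% of all genes. The 1 below was the histone chaperone Asf1a (log2 ratio -0.21, limma adjusted p = 0.118). Without tolvaptan replicate 4, 25 of the 45 rose, against 15.2% of all genes. Without dDAVP replicate 1, 7 did (5.58% of all genes), and 7 also with a common median (5.79%). Clspn, the checkpoint adaptor claspin, had the largest ratio, at 10.2, 8.24, 8.85 and 11.5 TPM against 16.3, 13.4, 12.8 and 16.4 TPM (log2 ratio 0.56 ± 0.12 SE, limma adjusted p = 0.013). Ticrr, which brings Cdc45 to the helicase, followed at 0.41 ± 0.06 (SE; limma adjusted p = 0.0018), and its partner Mtbp at 0.20. Dscc1 of the alternative clamp loader had a log2 ratio of 0.30, Uhrf1, which reads newly replicated DNA, 0.26, thymidine kinase Tk1 0.25, the nuclease-helicase Dna2 0.24 and the ribonuclease subunit Rnaseh2c 0.26.

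In the network that controls the G1/S step, 25 of 31 listed genes were tested, and 5 rose and none fell, against 10% and 6.10% of all genes. The median log2 ratio of the 25 was 0.09, against 0.05 over all genes. E2f7, a repressor of E2F targets that is itself induced in S phase, held 32.3, 31.6, 33.6 and 28.8 TPM with dDAVP alone and 43.6, 43.6, 45.3 and 42.6 TPM with tolvaptan (log2 ratio 0.46 ± 0.05 SE, limma adjusted p = 0.000384). Its relative E2f8 had a log2 ratio of 0.24, the E2F partner Tfdp2 0.30, Cdk4 0.20 and cyclin D1 (Ccnd1) 0.38, with Ccnd1 at only 7.03 to 9.05 TPM against 9.94 to 12.3 TPM. The estimate was above 0 for 22 of the 25 and below 0 for 3, none of which passed. These were Rb1 (-0.25, limma adjusted p = 0.155), Rbl2 (-0.15, 0.0755) and Ccnd3 (-0.06, 0.511). Rbl1, of the same retinoblastoma family as Rb1 and Rbl2, had a log2 ratio of 0.09 and did not pass. Of the 5 that rose, only E2f7 had a limma adjusted p under 0.01. The count was 8 without tolvaptan replicate 4, when 15.2% of all genes rose. It was 3 without dDAVP replicate 1, 3 or 4 or tolvaptan replicate 2, when 4.67% to 5.65% of all genes rose. Without dDAVP replicate 2 or tolvaptan replicate 3 it was 2 (5.73% and 6.79% of all genes). The count was also 2 with a common median (5.79%) and after quantile normalization (6.16%).

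Mitotic genes, set beside the replication genes without a test of the difference, had 7 of 20 higher and none lower, with a median log2 ratio of 0.19. Over all genes 10% were higher and 6.10% lower, with a median of 0.05. Aurkb, a kinase of chromosome segregation, had the smallest p, at 94.8, 101, 111 and 102 TPM against 126, 128, 122 and 125 TPM (log2 ratio 0.29 ± 0.05 SE, limma adjusted p = 0.00421). The log2 ratio was 0.19 for Cdc20, 0.20 for Bub1b, 0.17 for Tpx2, 0.20 for Birc5 and 0.23 for Top2a, which also passed. The proliferation marker Mki67, with the largest ratio of the 20, held 22.2, 24.2, 23.0 and 21.8 TPM against 32.9, 29.6, 29.9 and 25.2 TPM (log2 ratio 0.35 ± 0.08 SE, limma adjusted p = 0.0149). The count was 13 without tolvaptan replicate 4 (15.2% of all genes rose) and 2 with a common median (5.79%). It was 2 to 4 without dDAVP replicate 1, 2 or 4 or tolvaptan replicate 2 or 3, when 4.67% to 6.79% of all genes rose. The log2 ratios of the 13 that did not pass ran from -0.01 for cyclin B1 (Ccnb1) to 0.29 for Cenpf. Among them were Aurka (0.09), Kif20a (0.10), Plk1 (0.14), Kif11 (0.20) and Cenpe (0.21).

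As a check of the labels, Aqp2, the vasopressin-regulated water channel, stood at 2828 to 3211 TPM with dDAVP alone and at 237 to 339 TPM with tolvaptan. Of 10 principal cell markers, 8 exceeded 10 TPM, with Scnn1b and Elf5 below 1 TPM, and the summed level ran from 9903 to 10564 TPM with dDAVP alone and from 5205 to 6451 TPM with tolvaptan. Aqp2 and the keratin Krt18 make up most of that sum. Of the 8, Aqp2, Krt18, Krt8 and the V2 receptor Avpr2 fell (log2 ratios -3.49, -0.52, -0.37 and -0.40), the sodium channel subunits Scnn1a and Scnn1g rose (0.62 and 0.42, limma adjusted p = 0.00238 and 0.0014), and Gata3 and Hsd11b2 did not pass. Of 19 markers of other cells, those above 1 TPM were Atp6v1b1 (42.3 to 77.6 TPM), Lrp2 (7.80 to 11.6 TPM) and Cd68 (5.14 to 6.85 TPM). No marker of fibroblasts or endothelium reached 1 TPM in any library. Lrp2 rose with tolvaptan (log2 ratio 0.41, limma adjusted p = 0.0108), and its part in the values above was not tested.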

How the data were processed

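RNA was measured in 8 libraries of mpkCCD cells, 4 per group. The authors made cDNA with a kit that does not mark strand, used STAR with the Ensembl mouse release 106, and deposited TPM values (transcript abundance per length) estimated by RSEM. Versions of both tools are not given in the sources used here. TPM sum to the same total in each library, so the reads behind a value are unknown and no counting interval is given. Each column was tied to a sample through the group and number in its header.

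Genes with a maximum above 10 TPM were tested on log2(TPM + 1) by limma 3.58.1 in R 4.3.3, unpaired and 2-sided, with eBayes and a trend on mean expression, and p-values were adjusted over all genes tested by the Benjamini-Hochberg method. The pseudocount of 1 draws the ratios of low genes toward 0. SE is the standard error of the log2 ratio. The procedure was also run on simulated data with independent noise in each gene and library. These data held no GC-linked shift like that of tolvaptan replicate 4, so they do not test its effect. The members, gene lists and motifs were chosen with earlier results of these data known. Every member is accounted for. Those past an adjusted p of 0.05, those whose groups do not overlap, and in each group of roles the most abundant gene and the gene with the smallest p are described with their values, others by choice after their values were seen. From each list of other genes, at most 8 with the smallest p are named, and a few that did not pass or were under the filter were added after their values were seen. GC content and exon overlaps come from GENCODE M21 by stable gene ID (98.9% of genes tested), and promoters from RefSeq.

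Alternatives were 2 other pseudocounts (0.1 and 5), no filter, a mean TPM over 5, a common median, quantile normalization, 2 other variance models, replicate number as a block, leaving out each library, and removing each library's GC trend (added after the data were seen).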

Additional observations from a re-analysis of the deposited data

Results flagged for a closer look

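In 6 of the 92 groups of 4 libraries formed by the 46 genes, 1 library lay far from the other 3 (a gap, relative to the group's range, above Dixon's critical value), and chance flags about 1 in 20 such groups, or 4.6 here. Tolvaptan replicate 1 was low for Mcm3, at 580.7 TPM against 640.2 to 647.5, and for Mcm6, at 688.7 TPM against 720.2 to 723.9. Tolvaptan replicate 4 was low for Orc6, at 116 TPM against 144 to 148.9, and for Pola1, at 32.1 TPM against 41.3 to 42.5. In the dDAVP libraries, replicate 4 was low for Pole, at 52.3 TPM against 57.4 to 58, and high for Ccne2, at 59 TPM against 49.8 to 50.9. Pole rose with and without that library.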

How the results depend on the processing

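Of the 15 genes that rose, 11 did so in all 18 alternatives: Mcm5, Mcm10, Orc1, Cdc6, Pola2, Pole, Prim2, Rpa2, Fen1, Lig1 and Chaf1b. Some held narrowly, with a limma adjusted p of up to 0.0498 for Prim2, 0.0439 for Mcm5 and 0.0434 for Fen1. For counts of genes across all alternatives, the matching share of all genes tested is not given here. Mcm7, Cdt1, Cdc45 and Rfc5 missed the threshold in at least 1 alternative, each of them without a filter, where 39780 genes were tested, 1.25% of them rose and 11 of the 46 did (limma adjusted p = 0.0569, 0.0648, 0.101 and 0.109). A further 12 genes passed in at least 1 alternative, among them Orc4, which passed only as lower, and 19 passed in none. With 1 library left out, 11 to 23 of the 46 rose and none fell, the lowest without dDAVP replicate 4 and the highest without tolvaptan replicate 4, where 4.67% and 15.2% of all genes rose, and their median log2 ratio was 0.12 to 0.15. Over all genes the median was 0.05 or 0.06 in these fits. For the 46 it was 0.09 with a common median and 0.09 with the GC trend removed, against 0.01 and 0 over all genes. In the last fit 1 gene fell, Orc4 (log2 ratio -0.19, adjusted p = 0.0149 from limma), and the cause was not tested. No alternative brought any of the 46 past the study's criteria, as applied to the limma fits here.

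The labels do not say whether equal replicate numbers mark paired samples. Same-numbered libraries had correlations of -0.07 to 0.00 in their deviations from the group means. With replicate number as a block, when 5.18% of all genes rose, 12 of the 46 did, 5 further genes of the replication machinery, 3 of the G1/S network and 3 of the mitotic genes, and the calls of Mcm7 (adjusted p = 0.0516), Cdt1 (0.0549) and Rfc5 (0.103, all from limma) were lost. Without a filter (1.25% of all genes rose), the last 3 counts were 6, 1 and 2. They were 7, 2 and 2 with a common median (5.79%), and for the G1/S network 2 after quantile normalization (6.16%). Leaving out 1 library gave 7 to 25, 2 to 8 and 2 to 13, when 4.67% to 15.2% of all genes rose.

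Estimates near 0 changed sign without a call on either side. With a common median the log2 ratio was -0.04 for Mcm4, -0.04 for Orc5, -0.02 for Gins4, -0.02 for Prim1, 0.00 for Rfc4, -0.02 for Rpa1, -0.03 for Tyms and -0.03 for Ccne1. After quantile normalization it was -0.05 for Orc5 and -0.05 for Ccne1. With the GC trend removed it was -0.03 for Mcm4, Gins4, Rpa1 and Tyms and -0.05 for Ccne1. With 1 library left out it ran from -0.02 to 0.02 for Mcm4, -0.04 to 0.07 for Orc5, -0.05 to 0.08 for Pola1, -0.01 to 0.04 for Rpa1, -0.03 to 0.06 for Tyms and -0.01 to 0.03 for Ccne1. The depth behind the TPM is unknown, and differences much under the spread between libraries could not be resolved.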
